A study of Homo sapiens with 8 samples.

Results

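The chromatin occupied by the V2084D mutant of ARID1A was compared with that occupied by the wild-type protein (WT) in Huh7 cells, a human hepatocellular carcinoma line. The members were the peaks of the 4 Flag ChIP-seq libraries labelled for either protein without STUB1 knockdown, 2 libraries in each of 2 groups, and they made up 72486 of the 88053 peaks in the 6 deposited lists. All cells of both groups were ARID1A knockouts in which a lentivirus stably expressed ARID1A with a Flag tag. In the WT group the tagged protein was wild-type ARID1A, and in the mutant group it was ARID1A V2084D. Chromatin was pulled down with an antibody to the Flag tag. The peak names of both groups also carry the tag shEV, which the labels do not explain, and the knockout name 24KO. The promoter that drove expression was not given in the sources used here, nor was the number of cell clones. The labels number 2 replicates per group without naming separate cultures. The p-values therefore refer to these libraries alone, and the spread between replicates may be technical.

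ARID1A is a large DNA-binding subunit of the SWI/SNF (BAF) chromatin remodelling complex, which uses ATP to move or evict nucleosomes at promoters and enhancers. Its gene is among the most often mutated chromatin genes in human cancers, including cancers of the liver. Loss of ARID1A changes which SWI/SNF complexes assemble and where they bind. V2084D replaces a valine in the C-terminal part of the protein with an aspartate, a charged residue.

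The peak lists held 27587 and 26515 peaks in WT replicates 1 and 2, and 6000 and 12384 peaks in V2084D replicates 1 and 2. Read depth is unknown from these files, and the length of a list depends on it and on the yield of the pull-down. The lists were therefore compared at equal length, taking from each the 6000 peaks with the highest −log10 p of the authors' peak caller, called top peaks below. A top peak of rank 1 is the strongest of its list. The top peaks were 21.7% and 22.6% of the WT lists, 100% of the first V2084D list and 48.4% of the second. The last top peak had a −log10 p of 10.5 and 9.89 in WT and of 3.33 and 6.40 in V2084D. The first peak beyond it had the same value to 3 digits in the 3 lists that go on (10.5, 9.89 and 6.40). Equal length thus reaches weaker calls in the V2084D lists than in the WT lists. Ranks, fold enrichments and p-values of peaks are the authors' values and describe places within 1 list. With 2 libraries against 2 an exact permutation test has 6 arrangements and can give no p below 0.333, so no comparison of the libraries could pass 0.05.

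Promoter sequences of 7 of the strongest regions at annotated start sites are shown, because they represent the 3 classes of region on which the comparison turns. Each is the 200 bases before the start site in RefSeq (GRCh38.p14, the assembly of hg38), written 5′ to 3′ along the gene. The first 3 belong to regions among the top peaks of both WT lists and of neither V2084D list. They are the promoter of CFAP20, a protein of the ciliary axoneme (chr16:58129382-58129581, minus strand), that of RSRC2, an arginine/serine-rich coiled-coil protein (chr12:122526937-122527136, minus strand), and that of KDM5A, a histone H3 lysine 4 demethylase (chr12:389321-389520, minus strand). The next pair belongs to both V2084D lists and neither WT list. They are the promoter of ERO1B, an oxidase for disulfide bonds in the endoplasmic reticulum (chr1:236281959-236282158, minus strand), and that of SVBP, the partner of the vasohibin tubulin carboxypeptidases (chr1:42817398-42817597, minus strand). The last pair belongs to all 4 lists. They are the promoter of TXLNA, a syntaxin-binding protein (chr1:32179475-32179674, plus strand), and that of H3-3A, which encodes histone H3.3 (chr1:226062070-226062269, plus strand). Capitals mark matches on either strand to 12 motifs spelled out further on.
CFAP20: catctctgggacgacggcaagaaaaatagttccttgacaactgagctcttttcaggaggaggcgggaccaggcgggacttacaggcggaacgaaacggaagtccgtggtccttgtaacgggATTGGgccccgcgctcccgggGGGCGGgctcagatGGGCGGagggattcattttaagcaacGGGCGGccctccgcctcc
RSRC2: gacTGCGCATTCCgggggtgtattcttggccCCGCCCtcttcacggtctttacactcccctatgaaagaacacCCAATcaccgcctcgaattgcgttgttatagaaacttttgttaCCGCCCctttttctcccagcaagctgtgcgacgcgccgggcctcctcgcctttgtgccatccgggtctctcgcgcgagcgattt
KDM5A: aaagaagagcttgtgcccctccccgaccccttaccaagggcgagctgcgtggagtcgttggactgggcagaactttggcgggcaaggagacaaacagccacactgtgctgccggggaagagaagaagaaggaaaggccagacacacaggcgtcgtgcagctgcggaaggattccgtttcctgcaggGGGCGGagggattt
ERO1B: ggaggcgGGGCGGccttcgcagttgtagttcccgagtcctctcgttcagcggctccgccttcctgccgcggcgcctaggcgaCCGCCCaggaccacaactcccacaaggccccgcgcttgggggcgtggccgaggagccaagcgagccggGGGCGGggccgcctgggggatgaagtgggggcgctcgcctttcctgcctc
SVBP: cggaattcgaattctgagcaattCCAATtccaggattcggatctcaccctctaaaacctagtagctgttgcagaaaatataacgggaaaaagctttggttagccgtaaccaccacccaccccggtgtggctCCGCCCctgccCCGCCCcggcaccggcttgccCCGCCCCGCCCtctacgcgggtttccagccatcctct
TXLNA: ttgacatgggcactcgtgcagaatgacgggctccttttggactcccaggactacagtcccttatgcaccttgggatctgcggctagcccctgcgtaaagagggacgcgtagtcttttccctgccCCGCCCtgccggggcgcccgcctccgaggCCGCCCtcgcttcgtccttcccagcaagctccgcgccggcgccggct
H3-3A: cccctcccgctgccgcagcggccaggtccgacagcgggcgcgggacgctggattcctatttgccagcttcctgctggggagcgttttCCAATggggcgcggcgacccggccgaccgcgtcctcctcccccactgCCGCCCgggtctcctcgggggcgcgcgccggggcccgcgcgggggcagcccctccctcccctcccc
All 7 held at least 1 GC box, written GGGCGG or its complement CCGCCC. SVBP held 4 GC boxes, CFAP20 and ERO1B held 3 each, RSRC2 and TXLNA held 2 each, and KDM5A and H3-3A held 1 each. A CCAAT box lay in CFAP20, RSRC2, SVBP and H3-3A. RSRC2 also held an NRF1 core that ran into a TEAD site. The base composition ran from 57% G and C in RSRC2 to 78% in H3-3A, and no class stood apart among the 7.

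Do the strong sites of the mutant lie where those of the wild-type protein lie? The WT replicates shared 60.3% of their top peaks, the V2084D replicates shared 44.9%, and a WT and a V2084D list shared on average 46.5% (46.0% to 46.8% over the 4 pairs). A peak counted as shared when it overlapped a peak of the other list by at least 1 bp. Sharing between the groups minus the mean sharing within them was -6.10 percentage points (exact permutation test over the 3 ways to pair the lists, two-sided, p = 0.333, the smallest it can give). When an overlap had to cover 50% of both peaks, the difference was -17.8 points, but V2084D peaks are narrower, which by itself makes this overlap harder to reach between the groups. With summits within 200 bp it was -6.66 points. Under the 1-bp rule wider peaks are easier to meet, and the top peaks covered 6.28 and 5.96 Mb in WT against 2.80 and 3.54 Mb in V2084D. This by itself favours sharing with a WT list over sharing within V2084D, and its part was not tested. At the full 6000 peaks the V2084D replicates shared no more with each other than with WT. Among the strongest peaks they did. In the first 250 peaks of each list the replicates shared 50.2% in WT and 50% in V2084D, while the 4 pairs between groups shared 36.6% to 41.6%. In the first 1000 these shares were 47.8%, 41.7% and 33.8% to 35.0%. In the first 5000 they were 58.1%, 43.8% and 43.9% to 44.4%, so sharing within V2084D was by then no higher than between the groups.

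**Figure D1:**
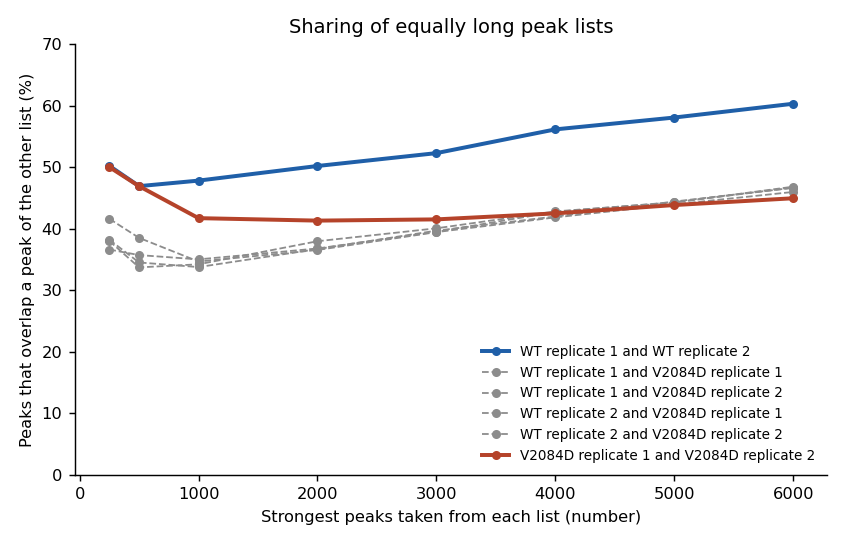
Share of peaks (percent, vertical axis) that overlap a peak of the other list, for lists cut to the strongest 250 to 6000 peaks (horizontal axis). Each line is 1 pair of libraries, blue within WT, red within V2084D and dashed grey between the groups; the red line starts beside the blue one at 50% and meets the grey lines by 4000 peaks.

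Most strong mutant sites were also WT sites, though not always strong ones. Of the top peaks of V2084D replicates 1 and 2, 84.1% and 85.0% overlapped a peak somewhere in the whole list of WT replicate 1, and 82.4% and 82.7% one in that of WT replicate 2. For V2084D replicate 1 against WT replicate 1 this divided into 48.6% among the WT top peaks, 35.5% among weaker WT peaks and 15.9% with no WT peak. In the other direction, 44.7% and 44.2% of the WT top peaks overlapped a peak of V2084D replicate 1, and 65.0% and 64.9% one of V2084D replicate 2, whose lists are shorter. The WT replicates found 95.6% and 96.4% of their top peaks in each other's whole lists, and the V2084D replicates 63.2% and 43.9%.

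The 4 sets of top peaks merged into 12449 regions, of which 1420 (11.4%) lay in all 4 lists and 6319 (50.8%) in a single list. In both WT lists and neither V2084D list there were 936 regions, 7.52% of all, called WT-only here. In both V2084D lists and neither WT list there were 549 regions, 4.41% of all, called V2084D-only. The other 4 pairs of lists, each of 1 WT and 1 V2084D library, gave from 321 to 356 regions found in that pair alone. Both same-group counts were thus above every mixed pair. These classes rest on each library: the WT-only count was 2364 and 2341 without WT replicates 1 and 2, and 1501 and 1549 without V2084D replicates 1 and 2. The V2084D-only count was 874 and 875 without either WT replicate, and 2396 and 2365 without V2084D replicates 1 and 2. Leaving out a list makes the rule easier to meet. The whole lists gave 7568 WT-only and 84 V2084D-only regions.

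The 12 strongest WT-only regions near genes all lay within 1 kb of an end of the gene, and 9 of them had no peak in either whole V2084D list. The first V2084D list ends at rank 6000, so a WT-only region is absent from it by definition. The strongest was that of CFAP20 (chr16:58128426-58130098), with fold enrichments of 10.3 and 10.7 at ranks 297 and 316 in WT replicates 1 and 2 and no peak in either whole V2084D list. RSRC2 (chr12:122526316-122527460) stood at ranks 130 and 340 with folds of 9.62 and 8.60, and KDM5A (chr12:388987-389927) at ranks 518 and 543 with folds of 8.79 and 8.80. Neither V2084D list held a peak at these regions. The same held for regions at RYBP (ranks 591 and 452) and BMI1 (ranks 612 and 436), which encode subunits of Polycomb repressive complex 1. It also held for DERL2, a factor of protein disposal from the endoplasmic reticulum (ranks 516 and 679), CHAMP1, which acts in chromosome alignment (620 and 718), TNRC18 (486 and 729) and MTURN (794 and 241). Of the 12, 3 had a weak peak in V2084D replicate 2. These were CYP20A1, an orphan cytochrome P450 (WT ranks 136 and 560, V2084D rank 9597), PDE7A, a cyclic AMP phosphodiesterase (139 and 671, V2084D rank 10650), and ARHGAP12, a GTPase-activating protein (738 and 212, V2084D rank 12241). Of all 936 WT-only regions, 340 (36.3%) had a peak in the whole list of V2084D replicate 2 and 596 (63.7%) had none in either V2084D list. RYBP, BMI1, RSRC2, DERL2 and TNRC18 had another top V2084D peak within 10 kb in at least 1 library, so the difference there concerns 1 region and not the whole gene.

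Of the 12 strongest V2084D-only regions near genes, 6 lay within 1 kb of an end of the gene, and 11 had a weaker peak in at least 1 WT list. The strongest anywhere lay on chr6:147407006-147408265, 17310 bp from STXBP5, at ranks 14 and 11 in V2084D replicates 1 and 2. WT replicate 1 held it at rank 9247 and WT replicate 2 had no peak there. Among regions near genes, that of RTBDN, a retinal riboflavin-binding protein (chr19:12832320-12832831), stood at ranks 87 and 317 with folds of 9.93 and 7.57, against WT ranks 12536 and 14311. The region 6783 bp from an end of CTNNB1, the beta-catenin gene (chr3:41233458-41233870), stood at ranks 94 and 713 in V2084D, was absent from WT replicate 1 and stood at rank 6060 in WT replicate 2, just outside the top 6000. Regions at NACC2, a BTB-domain repressor (ranks 241 and 321), and TTLL12, a tubulin tyrosine ligase-like protein (408 and 86), were at WT ranks 15076 and 6491 and at 6139 and 7743. SLC2A1, the glucose transporter GLUT1, had ranks of 721 and 289 against 9250 and 7874 in WT. ERO1B had ranks of 644 and 334 against 7269 and 6799, and SVBP 281 and 954 against 7250 and 8093. At KPNA3, a nuclear import receptor, the region (ranks 608 and 598) had no WT peak in either list. Of the 549 V2084D-only regions, 473 (86.2%) had a peak in the whole list of WT replicate 1 and 444 (80.9%) in that of WT replicate 2, at median ranks of 11629 and 10925. Only 44 (8.01%) had none in either. CTNNB1, SLC2A1, WDR73 and KPNA3 had a further top peak in all 4 lists within 10 kb.

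Some of the 1420 regions of all 4 lists stood near the head of every list. TXLNA stood at ranks 27 and 33 in WT and 22 and 14 in V2084D, and H3-3A at 44 and 45 against 60 and 38. KMT2A, a histone H3 lysine 4 methyltransferase, stood at 106 and 42 against 102 and 33. NELFB, a subunit of the factor that pauses RNA polymerase II, stood at 57 and 135 against 37 and 28. ZMPSTE24, the lamin A protease (85, 66, 79 and 137 in the order WT 1, WT 2, V2084D 1, V2084D 2), and AIMP2, a scaffold of the tRNA synthetase complex (65, 141, 84 and 30), were within the first 150 of all 4. The ranks of these 6 genes overlapped between the groups, apart from TXLNA and NELFB, which stood higher in both V2084D lists. Of the 10 strongest of these shared regions, ordered by the worst of their 4 ranks, 9 lay over 10 kb from an end of a protein-coding gene. On chromosome 1 there were 4 over an array of tRNA genes (the strongest at chr1:161453881-161458498, with 5 tRNA genes), at ranks 1, 2, 5 and 5. On chromosome 17 there were 2, each beside an annotated small nuclear RNA gene, and on chromosome X there were 3, of which 1 lay at the long noncoding RNA genes DANT1 and DANT2. All 10 were within the first 50 of every list. Besides that strongest one, worse in both V2084D lists were 1 on chromosome 17 (WT ranks 4 and 5, V2084D ranks 32 and 46) and 1 more tRNA region (22 and 24 against 46 and 26). The same held for 2 on chromosome X (2 and 1 against 13 and 7, 8 and 9 against 41 and 48). Another tRNA region (15 and 14 against 10 and 13) and TXLNA were better in both, and the others overlapped.

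Within the 1420 shared regions, the ranks of the groups mostly overlapped. Both V2084D ranks were better than both WT ranks in 283 regions (19.9%) and worse in 342 (24.1%), and the groups overlapped in the other 795. The median gap between replicates was 872 ranks in WT and 1017 in V2084D. The largest gains of rank in V2084D near genes were at ARF1, a GTPase of Golgi traffic (WT ranks 5052 and 4002, V2084D ranks 173 and 932), PDPK1, the kinase that activates AKT (5758 and 3284 against 1179 and 282), and RBM34, an RNA-binding protein (3558 and 4485 against 463 and 261). WBP2 (4713 and 5718 against 1184 and 1498), SCMH1 (5095 and 5339 against 1823 and 1264) and RNASE10 (4633 and 4781 against 1719 and 394) followed. The largest losses were at LSM14B, an mRNA-binding protein (301 and 1658 against 5847 and 5330), PPP1R13L, which encodes the p53 inhibitor iASPP (299 and 2392 against 5914 and 5854), and ARID4A, a retinoblastoma-binding protein (435 and 304 against 4120 and 5660). DDX55 (199 and 336 against 4976 and 4153), TBC1D17 (994 and 1449 against 4988 and 5595) and RAD52, of homologous recombination (414 and 656 against 5465 and 3715), were the others. These genes were chosen for the size of the difference, so their values describe it and do not test it.

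Mutant peaks were less often at promoters and narrower. Start sites of protein-coding genes, taken as within 1 kb of a RefSeq start, held 60.5% and 60.8% of the WT top peaks and 50.4% and 49.9% of the V2084D top peaks. Either annotated end of a protein-coding gene held 65.8% and 65.8% in WT and 56.2% and 55.6% in V2084D. The group means were 65.8% ± 0.0236 and 55.9% ± 0.412 (SD, n = 2), a difference of -9.88 percentage points (exact permutation test, two-sided, p = 0.333, the smallest it can give). All 4 pairs of a V2084D and a WT library differed in this direction, by -10.2 to -9.57 points. Places outside genes and over 10 kb away held 10.7% and 10.2% against 15.1% and 14.6%, the inside of genes 17.1% and 16.9% against 20.1% and 20.2%, and 3′ ends 1.15% and 1.30% against 2.08% and 2%. In each of these the V2084D lists lay above the WT lists. The difference was also present among the strongest peaks. In ranks 1 to 1000 start sites held 61.6% and 61.0% of the WT peaks and 49.5% and 51.6% of V2084D peaks. With the whole lists, which in WT reach far weaker peaks, the gene-end difference turned to 7.96 points in favour of V2084D. In WT replicate 1 the start-site share was 61.6% in ranks 1 to 1000 and 24.3% in ranks 26001 to 27000.

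The same places set the region classes apart. Start sites held 576 of the WT-only regions (61.5%), 239 of the V2084D-only regions (43.5%) and 912 of the regions of all 4 lists (64.2%). Places outside genes and over 10 kb away held 84 (8.97%), 109 (19.9%) and 158 (11.1%). V2084D-only regions were thus the least often at start sites and the most often far from genes of the 3 classes. No test over regions was made.

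Top peaks had a median width of 935 and 877 bp in WT and of 391.5 and 495 bp in V2084D. The means were 906 ± 41.0 and 443 ± 73.2 bp (SD, n = 2), a log2 ratio of -1.04 (exact permutation test, two-sided, p = 0.333). Over whole lists the log2 ratio was -0.33. Peaks wider than 2000 bp numbered 306 and 260 in the WT top lists and 28 and 42 in the V2084D lists, and the top peaks covered 6.28 and 5.96 Mb against 2.80 and 3.54 Mb. The median fold enrichment of the top peaks was also higher in WT (6.96 and 6.56) than in V2084D (4.50 and 4.91). Called width can move with enrichment and depth, and their part in the difference was not tested. In ranks 1 to 1000 the medians were 1176.5 and 1121.5 bp in WT and 529 and 698 bp in V2084D.

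**Figure D2:**
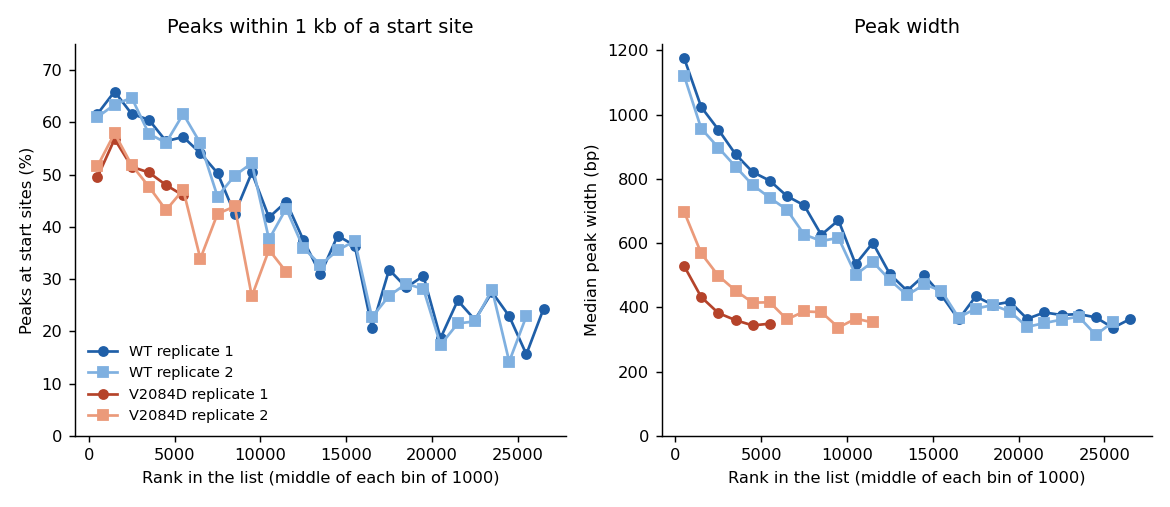
Share of peaks within 1 kb of a start site (left, percent) and median peak width (right, bp) in successive bins of 1000 ranks (horizontal axis) for each of the 4 whole lists, blue for WT and red for V2084D. In the first 6 bins both red lines lie below both blue lines in each panel, and the blue lines go on to 24.3% and 22.9%, and to 363.5 and 354.5 bp, in their last bins.

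Which promoters did the top peaks cover? The RefSeq promoter table held 15843 of the 20037 protein-coding genes, with 22078 distinct start sites, each with a window of 300 bases from 250 before to 50 after the start. A top peak overlapped 4829 and 4799 of these windows in WT and 3107 and 3365 in V2084D. The motifs were searched on both strands in these windows and were the GC box (GGGCGG), the CCAAT box (CCAAT), the ETS core (CCGGAAG), the E-box (CACGTG), the NRF1 core (TGCGCA), the YY1 core (ATGGCGG), the CRE core (TGACGT), the AP-1 site (TGANTCA), the TEAD site (GGAATG), the forkhead site (TGTTTAC), the TATA box (TATAAA) and the element TCGCGA. Both proteins were found at promoters rich in G and C. The median share of G and C was 67.0% and 67.3% in WT and 68.0% and 67.7% in V2084D, against 62.3% over all promoters. A GC box lay in 76.4% and 76.4% of covered promoters in WT and in 78.6% and 79.0% in V2084D, against 56.3% of all. The ETS core lay in 21.7% and 21.8% against 21.9% and 21.3% (12.8% of all), and the groups overlapped. The TATA box was rarer in covered promoters than over all, with 4.56% and 4.44% in WT, 3.93% and 3.89% in V2084D and 9.50% of all. The AP-1 site lay in 3.09% and 3.04% in WT and 3.32% and 3.03% in V2084D, against 6.16% of all promoters.

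For the GC box, the ETS core and the TATA box the groups differed by less than either differed from all promoters. None of the exact permutation tests could pass 0.05 (two-sided, smallest p 0.333). Between the classes of region some differences were wider. Among the 769 promoters covered by WT-only regions, the 269 by V2084D-only regions and the 1419 by regions of all 4 lists, the GC box lay in 74.5%, 82.5% and 77.4%, the ETS core in 22.9%, 16.4% and 21.99%, and the CRE core in 13.5%, 8.18% and 13.0%. The YY1 core lay in 8.84%, 14.1% and 12.6%, the E-box in 11.1%, 7.43% and 11.98%, and the TATA box in 4.94%, 1.49% and 4.30%. Of the 3 classes, V2084D-only promoters thus had GC boxes most often and ETS, CRE, E-box and TATA matches least often. The latter were few, in 44, 22, 20 and 4 of the 269 promoters. The CCAAT box (32.8%, 37.5% and 34.0%) and the AP-1 site (2.73%, 4.83% and 2.89%) were also most frequent in V2084D-only promoters, the AP-1 site in 13 of them. A match to letters is a description of the sequence and not a bound factor, and no test over promoters was made.

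Genes were counted next. A gene was counted where a top peak lay up to 10 kb from either annotated end. This held for 6348 and 6376 of the 20037 protein-coding genes in WT (31.7% and 31.8%) and for 5468 and 5601 in V2084D (27.3% and 28.0%). In all 4 lists 2188 genes (10.9%) had one. In both WT lists and neither V2084D list there were 804 genes, 4.01% of all, of which 438 had no V2084D peak in the whole lists either. In both V2084D lists and neither WT list there were 450 genes, 2.25% of all, of which 6 had no WT peak in the whole lists. The whole list of V2084D replicate 1 is its top list, so only V2084D replicate 2 could add a peak to WT-only genes. The WT lists are far longer, so the 438 and the 6 do not compare like with like. Leaving out WT replicate 1, WT replicate 2, V2084D replicate 1 or V2084D replicate 2 gave 1698, 1653, 1488 and 1557 WT-only genes and 846, 852, 1199 and 1136 V2084D-only genes. With the whole lists there were 3739 WT-only genes and 8 V2084D-only genes.

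Across 27 gene lists of pathways, complexes and cell types, 13 had fewer members with a top peak in both V2084D lists than in both WT lists, 14 overlapped between the groups and none had more in both. This direction is also that of all genes, since V2084D top peaks lay near fewer genes. The widest gap was in HOX genes, which set positional identity along the body axis. Of 39 HOX genes, 34 and 31 had a top peak in WT and 14 and 23 in V2084D. Feedback genes of receptor kinase and MAPK signalling had 17 and 17 of 30 in WT and 8 and 11 in V2084D. Glycolysis and hypoxia genes had 20 and 20 of 30 against 15 and 13. The TGF-beta and EMT genes had 15 and 15 of 28 against 9 and 11. In each of these lists every V2084D count was below every WT count.

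The HOX clusters differed in this. The HOXA cluster had a top peak at 11 and 11 of 11 genes in WT and at 4 and 9 in V2084D. The HOXB cluster had 8 and 8 of 10 in WT and 1 and 3 in V2084D. The HOXC cluster had 7 and 6 of 9 against 6 and 5, and the HOXD cluster 8 and 6 of 9 against 3 and 6. The groups did not overlap in HOXA and HOXB and overlapped or touched in HOXC and HOXD. In the whole lists, which differ in length, the HOXB cluster with 10 kb on either side held 45 and 37 WT peaks and 1 and 3 V2084D peaks. WT-only were 6 of the 39 HOX genes and V2084D-only were none, beside 4.01% and 2.25% of all genes. The WT-only HOX genes included HOXA2 (WT ranks 1056 and 1064), HOXB2 (3966 and 1922), HOXB4 (1336 and 4748), HOXB7 (898 and 2523) and HOXB8 (898 and 4923). Of these, only HOXB4 had a V2084D peak in the whole lists, at rank 10901 of replicate 2. The strongest HOX peak, shared by HOXC5 and HOXC6, was in all 4 lists at ranks 278 and 157 in WT and 759 and 1064 in V2084D. Neighbouring HOX genes share peaks, so the members are not independent.

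Signalling and growth genes showed the same order. WT-only members of the receptor kinase and MAPK list were FGFR2, a receptor for fibroblast growth factors (ranks 1930 and 4817), DUSP2, a MAP kinase phosphatase (3525 and 4385), SPRED1, an inhibitor of RAS signalling (2688 and 505), and PHLDA1 (1715 and 3166), so 4 of its 30 members were WT-only and none V2084D-only, beside 4.01% and 2.25% of all genes. IGF1R, the receptor of insulin-like growth factor 1, went the other way within all 4 lists, at 3070 and 1537 in WT and 802 and 896 in V2084D. Among glycolysis and hypoxia genes, WT-only members were HK2, a hexokinase (5175 and 4104), PFKFB3, which makes an activator of glycolysis (2199 and 1612), PDK1 (5181 and 4930) and VHL (5454 and 2798), whereas ENO1, the glycolytic enolase, was V2084D-only (5970 and 1929). PKM, pyruvate kinase, was strong in all 4 (270, 211, 236 and 559). Among cell cycle genes, the mitotic kinases AURKB (4669 and 1075) and PLK1 (1407 and 4876) were WT-only, and MCM7, of the replicative helicase, stood at 118 and 166 in WT and 1422 and 781 in V2084D. VIM, the mesenchymal filament gene of the TGF-beta and EMT list, stood at 359 and 430 against 2259 and 2548.

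Genes of gene expression and metabolism followed, to be read beside all genes, of which 31.7% and 31.8% had a top peak in WT and 27.3% and 28.0% in V2084D. Cytosolic ribosomal protein genes had a top peak at 29 and 24 of 40 in WT and 21 and 21 in V2084D. RPL6, RPL14 and RPL23 were WT-only (3 of 40) and none was V2084D-only, beside 4.01% and 2.25% of all genes. In all 4 lists were 12 of the 40, beside 10.9% of all genes, among them RPS2 (88, 106, 479 and 88). Splicing factors had 23 and 24 of 32 against 17 and 19, and SRSF1 stood at 53, 492, 553 and 1252. Mitochondrial ribosomal protein genes had 17 and 16 of 30 against 12 and 12, and oxidative phosphorylation genes 14 and 15 of 33 against 9 and 11. RNA polymerase II subunits and elongation factors had 22 and 18 of 30 against 15 and 17. Cell cycle and replication genes had 16 and 15 of 30 against 10 and 11. In these 6 lists too, both V2084D counts were below both WT counts, which is also the order of all genes. Members in all 4 lists numbered 3 of 33 for oxidative phosphorylation and 3 of 30 for mitochondrial ribosomal proteins, beside 10.9% of all genes.

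Other lists did not separate the groups. They are to be read beside all genes, of which 31.7% and 31.8% had a top peak in WT and 27.3% and 28.0% in V2084D. The share of all genes with one in all 4 lists was 10.9%. AP-1 genes, whose products open enhancers together with SWI/SNF, had 11 and 11 of 17 in WT and 10 and 11 in V2084D, and 8 of them were in all 4 lists. Of these JUND stood at 1025 and 659 in WT and 494 and 552 in V2084D. The p53 targets had 14 and 13 of 25 against 13 and 13, and YAP/TAZ targets and TEADs 15 and 16 of 31 against 13 and 15, with VGLL3, CRIM1, F3 and FJX1 WT-only and NUAK2 V2084D-only (4 and 1 of 31, where 4.01% and 2.25% of all genes were in these classes). Genes of the proteasome had 12 and 8 of 30 against 10 and 9, with PSMB1 (996 and 1133) and PSMB4 V2084D-only and PSMC2 and PSMD11 WT-only. Genes of chaperones and STUB1 partners had 16 and 16 of 27 against 11 and 16, and cholesterol synthesis and SREBP genes 14 and 15 of 28 against 9 and 14. FASN, fatty acid synthase, was strong in all 4 (50, 20, 104 and 245). In these lists the spread between the V2084D replicates, or between the WT replicates, reached the other group.

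Genes of chromatin complexes gave mixed counts. Among all genes, 31.7% and 31.8% had a top peak in WT and 27.3% and 28.0% in V2084D. The shares of all genes in the classes were 10.9% in all 4 lists, 4.01% WT-only and 2.25% V2084D-only. The 28 SWI/SNF subunit genes had a top peak at 15 and 15 in WT and 15 and 13 in V2084D, of which 6 were in all 4 lists. SS18, a subunit of BAF complexes, was WT-only (3004 and 4926). ARID1B, the paralog of ARID1A that takes its place in other BAF complexes, was V2084D-only (5547 and 4585), with a WT peak at rank 6340 of replicate 1 and none in replicate 2. Polycomb genes had 17 and 16 of 32 against 16 and 7, a spread within V2084D wider than the difference between the groups. EZH2, the Polycomb methyltransferase, stood at 761 and 238 in WT and 2513 in V2084D replicate 1 and had no top peak in V2084D replicate 2. Histone methyltransferase and demethylase genes had 20 and 21 of 32 against 19 and 14, and KDM5A and SUV39H2 were WT-only. In this last list both V2084D counts were below both WT counts.

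**Figure D3:**
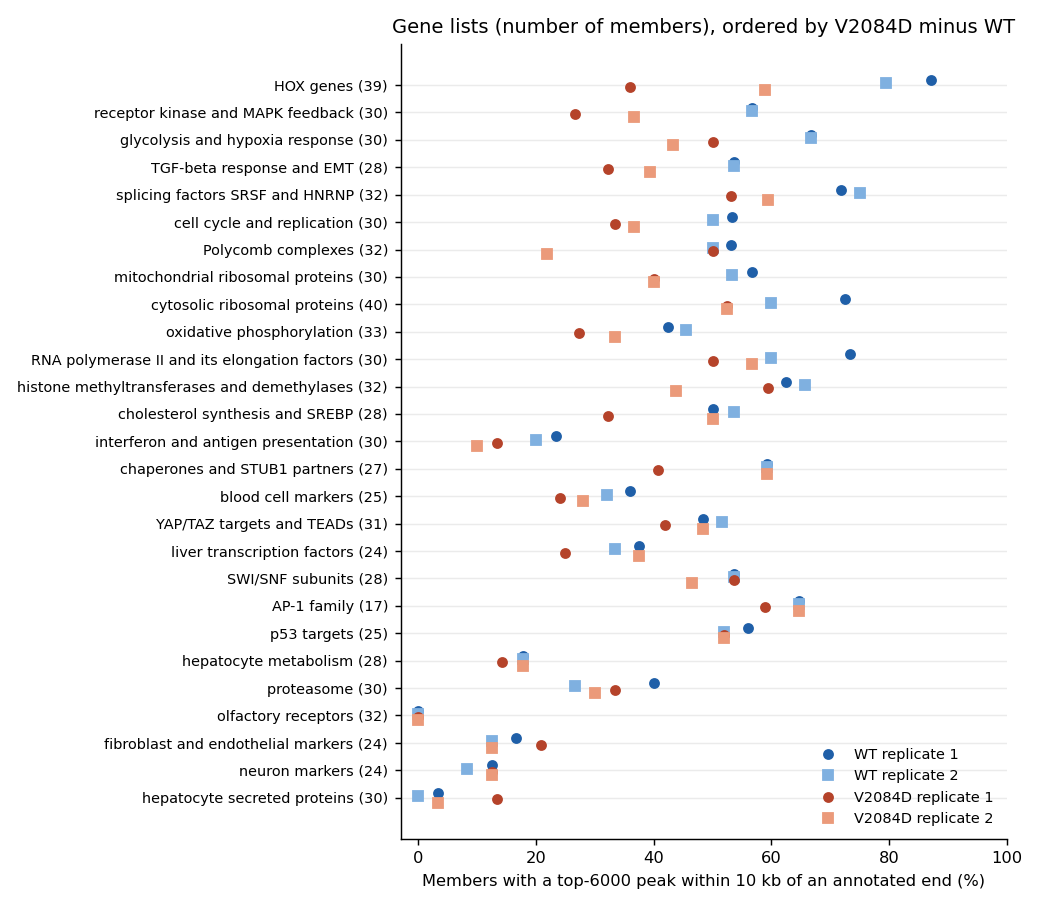
Share of the members of each of 27 gene lists with a top-6000 peak within 10 kb of an annotated end (horizontal axis, percent), with 1 point per library, blue for WT and red for V2084D; the number of members is in brackets. HOX genes, at the top, have the widest gap, and the lists near the bottom have overlapping points.

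The lists give occupancy and not expression, so the labelled cell type could be checked only in part. Genes for proteins that hepatocytes secrete had a top peak at 1 and 0 of 30 in WT and 4 and 1 in V2084D, hepatocyte metabolism genes at 5 and 5 of 28 against 4 and 5, and liver transcription factors at 9 and 8 of 24 against 6 and 9. CEBPB and GATA6 were WT-only (2 of 24) and HNF4G, a nuclear receptor, was V2084D-only (1 of 24, ranks 3596 and 2055). Among all genes, 4.01% and 2.25% were in these classes. Blood cell markers had a top peak at 9, 8, 6 and 7 of 25 (36% and 32% in WT, 24% and 28% in V2084D). This was near the share of all genes, 31.7% and 31.8% in WT and 27.3% and 28.0% in V2084D. Lower shares were seen for fibroblasts and endothelium (4, 3, 5 and 3 of 24) and for neurons (3, 2, 3 and 3 of 24). Interferon and antigen presentation genes were also below all genes, with 7, 6, 4 and 3 of 30. Of the lists in this paragraph, those of blood cells and of interferon and antigen presentation were lower in both V2084D libraries, and the others overlapped. Olfactory receptors had none of 32 in any list. Occupancy of these lists neither marked the cells as hepatocytes nor as another type.

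Top peaks of the mutant were placed differently over the chromosomes. Of 24 chromosomes, 9 had a higher share of the top peaks in both V2084D lists than in both WT lists, 11 a lower share and 4 overlapped. Chromosome 1 held 11.5% and 11.8% of the WT top peaks and 18.6% and 18.1% of the V2084D top peaks (means 11.6% ± 0.165 and 18.3% ± 0.330, SD, n = 2, log2 ratio 0.66, exact permutation test, two-sided, p = 0.333). Among the other autosomes, the largest ratios were on chromosomes 16 (log2 ratio 0.47), 15 (0.45), 21 (0.41) and 6 (0.29). Chromosome Y, with 8 and 7 peaks in WT and 10 and 14 in V2084D, held too few for its ratio to be read. Chromosome 18 held 88 and 93 peaks in WT and 38 and 32 in V2084D (log2 ratio -1.37), and chromosomes 5 (-0.71), 2 (-0.58), 13 (-0.55) and 10 (-0.49) were lower as well. Chromosomes 9 and 20 had the same or nearly the same share in both groups, and 4 and X overlapped.

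**Figure D4:**
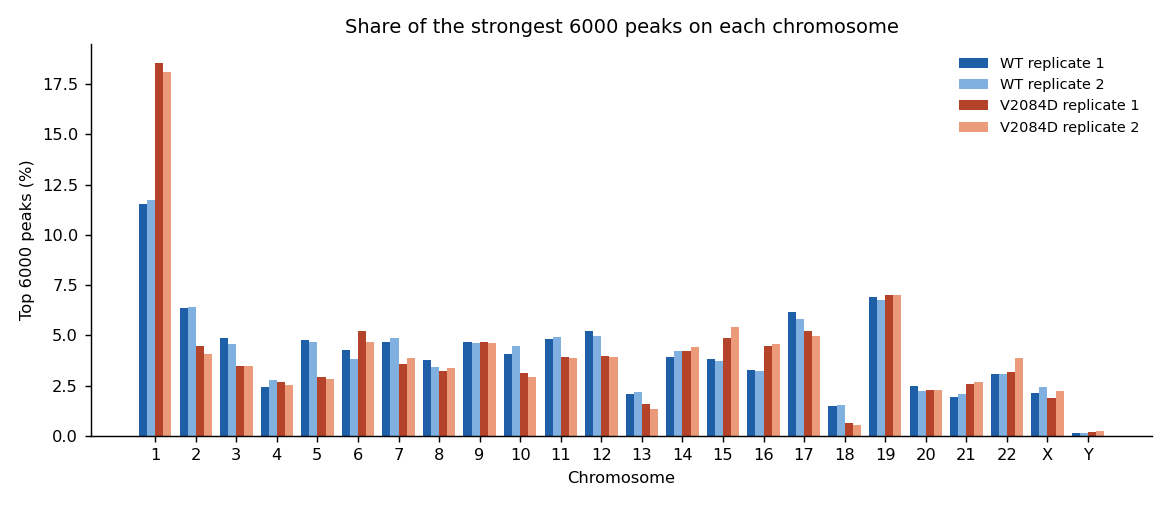
Share of the top 6000 peaks on each chromosome (vertical axis, percent) with 1 bar per library, blue for WT and red for V2084D. Chromosome 1 stands at 11.5% and 11.8% in WT and 18.6% and 18.1% in V2084D, and chromosome 18 is lower in both V2084D libraries.

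The gain on chromosome 1 was concentrated in stretches. The chromosomes were cut into 5-Mb windows. Of the 185 that averaged 10 or more top peaks per list, 55 (29.7%) had more top peaks in both V2084D lists than in both WT lists, 11 of them past 2-fold, and 55 (29.7%) had fewer, 4 of them past 2-fold. The window from 30 to 35 Mb of chromosome 1 held 32 and 38 WT peaks and 124 and 112 V2084D peaks, and the one from 40 to 45 Mb 40 and 33 against 117 and 113. Together, this stretch, 30 to 55 Mb, contained 2.35% and 2.37% of the WT top peaks and 7.12% and 6.95% of the V2084D top peaks. It held 80 V2084D-only regions, 1 WT-only region and 81 regions of all 4 lists. The stretch from 225 to 240 Mb held 1.18% and 1.32% against 2.80% and 2.37%. The remainder of the chromosome held 7.98% and 8.07% against 8.65% and 8.78%. These stretches were chosen after their values were seen. Genes with V2084D-only regions in them were SLC2A1 and SVBP (40 to 45 Mb), RRAGC, a GTPase of amino acid sensing to mTORC1 (35 to 40 Mb), RAD54L, of homologous recombination (45 to 50 Mb), and SCP2 (50 to 55 Mb).

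Windows past 2-fold also lay outside chromosome 1, and all of those with fewer V2084D peaks did. Chromosome 9 from 135 to 140 Mb held 34 and 32 WT peaks and 98 and 88 V2084D peaks, with V2084D-only regions at SNAPC4, NOTCH1, which encodes the NOTCH1 receptor, and NPDC1. Chromosome 15 held 21 and 16 against 44 and 48 from 75 to 80 Mb, and 9 and 9 against 21 and 19 from 85 to 90 Mb. Chromosome 6 held 23 and 17 against 45 and 41 from 0 to 5 Mb and 8 and 9 against 25 and 20 from 5 to 10 Mb. The windows with fewer V2084D peaks past 2-fold were chromosome 11 from 30 to 35 Mb (14 and 16 against 7 and 5) and 3 windows of chromosome 2. The input libraries of the series are labelled for WT alone, with none for V2084D, and they were not analysed here. The DNA content of these stretches was therefore not measured in either group, and its part in their peak counts was not tested.

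Chromosome 1 also set the classes apart. It held 69 WT-only regions (7.37%), 134 V2084D-only regions (24.4%) and 277 regions of all 4 lists (19.5%). Among the regions of all 4 lists, 82 of those with better V2084D ranks (29.0%) and 38 of those with worse ranks (11.1%) lay on it. Without chromosome 1 the gene-end difference was -8.69 percentage points and the log2 ratio of widths -1.07. The lower share of promoters and the narrower peaks in V2084D were thus present on the other chromosomes too.

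The gene of the expressed protein headed both mutant lists. The best peak over ARID1A (chromosome 1) was at rank 1 in both V2084D lists, with folds of 24.0 and 32.3, and at ranks 483 and 55 in WT, with folds of 5.71 and 9.33. In all 4 lists it lay 84.3 to 84.5 kb from the gene's start and 1.63 to 1.77 kb before its other annotated end, and not at the promoter. EEF1A1, which encodes translation elongation factor 1 alpha, stood at ranks 2 and 3 in V2084D and 59 and 68 in WT. STUB1, the chaperone-linked ubiquitin ligase CHIP, stood at 5140 and 769 in WT and 567 and 367 in V2084D. The best peak near STUB1 lay at -0.767 and 1.548 kb from the gene's start in WT replicates 1 and 2. In V2084D replicates 1 and 2 it lay at 1.465 and -0.152 kb, so the ranks at STUB1 do not all belong to 1 place. Both V2084D ranks were better than both WT ranks at all 3 genes, with this limit at STUB1. Whether DNA of the lentiviral construct contributed to any of these peaks was not tested.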

How the data were processed

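Flag ChIP-seq peak lists of 2 WT and 2 V2084D libraries were compared, grouped by their titles. Per the submitters' processing notes, reads were handled with Trimmomatic, Bowtie2, MACS2, SAMtools, Picard, deepTools and bedtools on build hg38. The control of each peak call was not given in the sources used here, nor were versions and settings. The authors called peaks per library, as the peak names show. The deposited columns are a score, the fold enrichment (a ratio), −log10 p and −log10 q. The score and q were not used further.

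Peaks were ranked by −log10 p, ties by fold and then position, and the first 6000 of each list were taken. Peaks overlapping by at least 1 bp were merged into regions. Genes were the 20037 protein-coding genes of RefSeq (GRCh38.p14), matched within 10000 bp of an annotated end. Exons were not used here. Groups were compared with exact permutation tests (Python 3.11.15, numpy 2.4.6, pandas 2.3.3, scipy 1.17.1). The code was tested on simulated data.

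Members, the 27 gene lists (789 of 790 entries matched) and rules were chosen with earlier results of these data known. Named genes were those at the 12 strongest regions per class, the 6 largest gains and 6 largest losses of rank, up to 4 members per list, and ARID1A, STUB1 and EEF1A1. Other list members found in 1 group alone, the neighbours of far regions and the genes in windows were added after their values were seen. Some genes that the rule picked are left out. The alternatives were other list lengths, ranking by fold, stricter overlap, assembled chromosomes alone, other gene distances, each library left out and a replicate block.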

Additional observations from a re-analysis of the deposited data

How the results depend on the processing

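The counts of regions and genes depended on how many peaks were taken. WT-only regions numbered 490 with the top 3000, 7568 with all peaks and 1542 with an overlap of 50% of both peaks, and 1501 to 2364 with 1 library left out. V2084D-only regions numbered 349 with the top 3000, 84 with all peaks and 874 to 2396 with 1 library left out. WT-only genes numbered 3739 with all peaks and 1488 to 1698 with 1 library left out, and V2084D-only genes 8 and 846 to 1199. With all peaks the gene-end difference was 7.96 percentage points, the reverse of -9.88; that setting takes in the weaker WT peaks. In the other 12 alternatives it stayed between -10.9 and -8.35 points. The log2 ratio of widths ran from -1.21 to -0.33, the sharing difference from -17.8 to -4.76 points, and the count of chromosomes that did not overlap from 17 to 23. Start sites in place of gene ends, both results without chromosome 1 and the widths in ranks 1 to 1000 alone were alternatives chosen after seeing the data.

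With the replicate block, the paired gene-end difference was -9.88 points and the log2 ratio of widths -1.04 (exact sign-flip test, p = 0.5, the smallest it can give). The labels do not say that a number marks a shared culture, and deviations of same-numbered libraries had a correlation of 0.00331 over the 1420 shared regions. The block changed no call.

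Depth and pull-down yield are unknown, and the V2084D lists are shorter, so a missing V2084D peak means that none was called and not that the protein was absent.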

Other observations

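RNA genes were not among the protein-coding genes counted above. Long noncoding RNA genes lay within 1 kb of 20.4% and 20.9% of the WT top peaks and of 16.3% and 16.6% of the V2084D top peaks. They lay at 223 WT-only regions (23.8%), at 65 V2084D-only regions (11.8%) and at 285 regions of all 4 lists (20.1%). Genes of tRNAs, which RNA polymerase III transcribes, lay at 96 and 80 top peaks in WT and at 116 and 93 in V2084D, and the groups overlapped. Of the regions with a tRNA gene, 5 were WT-only, 11 were V2084D-only and 38 were in all 4 lists. Small nuclear RNA genes lay at 50 and 44 WT and 39 and 36 V2084D top peaks.

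The libraries of the V2084D mutant with STUB1 knockdown, 2 lists of 8904 and 6663 peaks, were not part of the comparison. They held a peak at 49.0% and 32.1% of the WT-only regions, at 61.4% and 50.5% of the V2084D-only regions, and at 92.3% and 83.1% of the regions of all 4 lists. Beside this, the whole list of V2084D replicate 2 held a peak at 36.3% of the WT-only regions. That of V2084D replicate 1 held none of them, by definition of the class. The V2084D-only regions are in both V2084D lists by definition as well. Regain or loss of regions with the knockdown was not tested.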
